A study of Homo sapiens with 24 samples.

Results

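The lncRNAs described here lay on heavy polysomes in untreated MRC5 cells, and the question was where they were found once the cells met oxidative stress (OS). Members were selected on measured values. A custom lncRNA probe had to be well above background, by the mark of the scanner software, on all 3 arrays of the control high pool. Its mean log2 value in the deposited table also had to be higher by at least 2 in the control high pool than in the control untranslated pool. These criteria were met by 899 of the 44002 custom probes (2.04%), or 11.3% of the 7934 custom probes well above background on all 3 control high arrays. The 899 probes belong to 568 of the 22007 lncRNA transcripts on the array. Because the control high and control untranslated arrays chose the members, their own values are a description only, and the tests below use the OS arrays and the control total and control low arrays.

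MRC5 is an established line of human lung fibroblasts. The cells were either untreated (control) or exposed to 0.2 mM H2O2 for 2 h (OS), and polysomes were held with cycloheximide. Labelled RNA came from whole cells (total RNA) or from pooled sucrose gradient fractions: 1 to 9 for the untranslated pool (free ribonucleoprotein and 80S monosomes), 10 to 14 for the low pool (2 to 4 ribosomes) and 15 to 23 for the high pool (5 ribosomes or more). Each of the 8 combinations had 3 single-colour arrays, and their number limits the precision of every value. The methods state that RNA was prepared independently 3 times, and the arrays were taken so. The first 2 control untranslated arrays nevertheless carry the same label number, and the files do not say whether both hold the same RNA. With these 2 arrays averaged in the criteria 937 probes are selected, 876 of them among the 899.

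Signals were expressed as log2 and quantile normalized for lncRNA and mRNA probes separately. A value therefore tells where a probe stands among the probes of its own category on that array, and each difference below is a movement relative to that category, not a change in the amount of RNA. Fewer cells and less RNA per cell cannot be told apart in these extracts. Replicate 3 of the low pool upon OS (OS low replicate 3) stands apart from the other 23 arrays. On it 93.3% of the lncRNA probes were well above background, against 14.5% to 36.3% elsewhere, and the median log2 signal before normalization was 9.23, against 2.82 to 5.16. Results that rest on this array are given with and without it.

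Ribosomes engaged on an mRNA form polysomes, and RNAs that carry many ribosomes travel farthest into a sucrose gradient. Oxidative stress commonly lowers the rate of translation initiation, which moves many mRNAs toward lighter fractions while some stress response mRNAs stay on polysomes. An lncRNA has no long annotated reading frame, yet a share of cytoplasmic lncRNAs sediments with ribosomes, and sedimentation in heavy fractions alone does not show that an RNA is translated.

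The custom probes carry a transcript identifier but neither a gene name nor a position. Some of them overlap a catalog probe of the same array, whose position and name the design gives, and 51 member probes of 38 transcripts shared at least 20 bases on the same strand with such a probe. The following stretches of 30 bases are common to a member probe and the catalog probe named beside it. They are shown because they tell which RNA, coding or non-coding, a member signal can come from, and each is written 5′ to 3′ on its own strand of GRCh37.
ENST00000515055.1 and KPNA6: gcattgagtgtgctgagtccagacaaatgt
ENST00000595265.1 and GNB4: cacagtgattcattcctctatttgtacagt
ENST00000590979.1 and CNP: ccctataatgctggagcggctactaaaaag
ENST00000555379.1 and LOC283624: gttacctacctgctattttcactgtaattt
ENST00000511998.1 and H1FX-AS1: ttcttgaagaaggaccatgtgaatttcctg
ENST00000464767.1 and LINC00341: caagttggaagtagcagtgttctaaaagat
ENST00000569710.1 and BC035135: gccgtctgtttctataagcctgtctgcttg
KPNA6 (importin alpha 7, an adaptor for nuclear import), GNB4 (a G protein beta subunit) and CNP (a cyclic nucleotide phosphodiesterase) are coding mRNAs. Their stretches lie at chr1:32642036-32642065 on the plus strand, chr3:179113932-179113961 on the minus strand and chr17:40129673-40129702 on the plus strand. LOC283624, H1FX-AS1 and LINC00341 are listed as non-coding RNAs, and BC035135 is a cDNA clone with no further name in the design. Their stretches lie at chr14:21668319-21668348 (minus), chr3:129036811-129036840 (plus), chr14:95873691-95873720 (minus) and chr7:39987150-39987179 (minus).

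Of 8 fibroblast markers, 4 had a catalog probe, and all 4 were well above background in control total RNA, with means of 17.80 for COL1A1, 15.84 for THY1, 11.62 for LUM and 10.81 for COL3A1. Of 4 epithelial markers, EPCAM and KRT5 had a probe and neither was well above background on any control total array. VWF, of 3 endothelial markers, was not well above background either, while CDH5 was, at 6.37. PTPRC, the only one found of 4 blood markers, has 3 probes. The brightest was well above background at 6.28, and the other 2 were so on no control total array. The fibroblast markers were thus present as the labels say, and the part of other cell types in the CDH5 and PTPRC signals was not tested.

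The control difference that chose the members had a median of 2.76 over the 899 probes. The highest value, 6.28 for ENST00000558334.1, rests on signals below detection in the control untranslated pool. Over all 7934 lncRNA probes well above background in the control high pool the median of the control difference was -0.52. The members thus form the far end of a distribution that lies on the side of the untranslated pool. In the mRNA category the same difference had a median of 1.08 over 9847 probes, and 2934 of them (29.8%) reached 2. At the edge, ENST00000413247.1 entered with a difference of 2.00 and ENST00000563632.1 and ENST00000513071.1 with 2.01. ENST00000558156.1, ENST00000548964.1 and ENST00000425350.1 fell just short of the threshold, at values that also round to 2.00.

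Both probes of a transcript were members for 331 transcripts and 1 probe was a member for 237. The second probe of those 237 was not well above background in the control high pool in 92 cases and fell below the threshold in 145, with a median difference of 1.62 there, 119 values of at least 1 and 3 below 0. Where both probes were members, their control differences had a median absolute distance of 0.28 and 222 pairs lay within 0.5, while 38 pairs were apart by over 1 and the farthest by 2.41. The members are also fewer RNAs than probes, since the sequence of 177 member probes also occurs on another custom probe and the 899 probes hold 810 distinct sequences. Their median GC content was 41.7%, against 45.0% for the other lncRNA probes well above background in the control high pool and 41.7% for all custom probes. An overlap with a catalog probe on the same strand was found for 5.67% of the members and 5.97% of the other probes well above background.

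Before any test, the array values show where the members lay. For 897 member probes without an outlier mark, the median log2 signals on the 3 control total arrays were 7.56, 7.62 and 7.68, and on the OS total arrays 7.36, 7.42 and 7.49. In the untranslated pool they were 5.34, 5.15 and 4.90 in control cells and 5.66, 5.67 and 5.93 upon OS. In the low pool they were 6.94, 7.07 and 6.99 in control cells and 6.86, 6.73 and 4.45 upon OS, the last on the array that stands apart. In the high pool they were 8.57, 8.65 and 8.65 in control cells and 8.38, 8.15 and 8.45 upon OS. All 3 OS high medians thus lay above all 3 OS untranslated medians, as in control cells. The low pool lay between them upon OS on replicates 1 and 2 only, since the median of OS low replicate 3 was below those of the untranslated pool. The other 7005 lncRNA probes well above background in the control high pool had array medians between 7.58 and 7.91 on all arrays but OS low replicate 3, where theirs was 5.71.

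**Figure D1:**
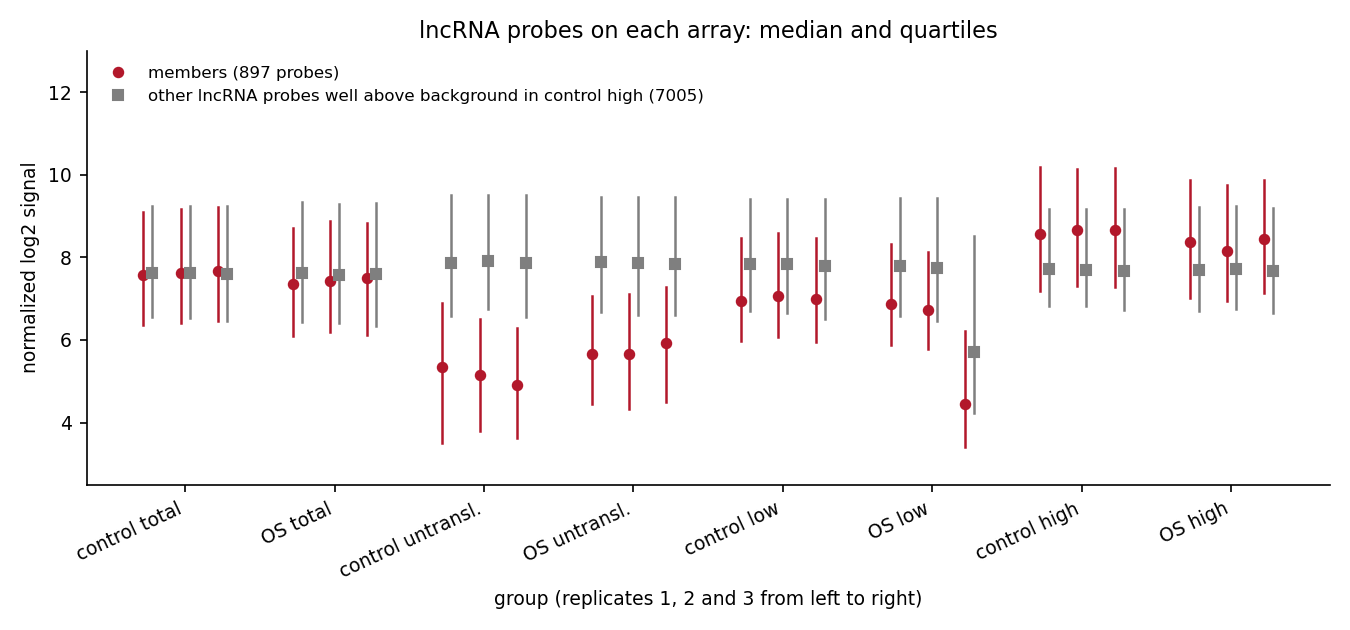
Median (point) and quartiles (line) of the normalized log2 signal on each of the 24 arrays, for the 897 member probes (red circles) and the 7005 other lncRNA probes well above background in the control high pool (gray squares), with replicates 1, 2 and 3 of each group from left to right. Members are lowest in the untranslated pool and highest in the high pool in control cells and upon OS, except on the last OS low array, where they lie below the untranslated pool and the other probes leave their usual place near 7.7.

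Detection was counted as well. In the OS high pool 866 of the 899 members (96.3%) were well above background on all 3 arrays, 23 on 2, 7 on 1 and 3 on none, against 93.8% on all 3 for all lncRNA probes well above background in the control high pool. In the OS untranslated pool these numbers were 316, 50, 89 and 444, and in the control untranslated pool 210, 44, 86 and 559. The share measured on all 3 untranslated arrays was 23.4% of the members in control cells and 35.2% upon OS, against 66.0% and 72.2% of those lncRNA probes. Of the members in the fit that no control untranslated array measured, 51 were measured on all 3 OS untranslated arrays and 418 on none. No such counts over the other lncRNA probes are given, and low control untranslated signals took part in the choice. ENST00000558334.1, whose control difference was highest but rests on signals below detection, is one of the 51. Its log2 signals were 3.18, 3.21 and 3.21 on the control untranslated arrays and 6.34, 6.77 and 6.73 on those of OS. Total RNA measured 776 members on all 3 control arrays (86.3%, against 90.0%) and 785 on all 3 OS arrays (87.3%, against 93.0%). The low pool measured 749 (83.3%, against 93.7%) and 774 (86.1%, against 96.4%).

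Did the members keep to heavy polysomes upon OS? The 5 members brightest in the control high pool, whose values chose them, answer for single transcripts. ENST00000579777.1 had log2 signals of 16.87, 17.11 and 17.17 in the OS high pool and 13.68, 13.35 and 13.69 in the OS untranslated pool. The groups do not overlap, and the difference of 3.48 (SE 0.22, n = 3 per group), an 11.2-fold higher signal, passed the limma test (adjusted p = 2.24e-10). ENST00000455236.1 had 16.95, 16.92 and 16.72 against 12.85, 12.87 and 12.99, higher on all 3 arrays by 3.96 (SE 0.14, limma adjusted p = 3.23e-13). ENST00000415663.1 had 16.64, 16.85 and 16.60 against 12.56, 12.50 and 12.60, the largest difference of the 5 at 4.14 (SE 0.18, limma adjusted p = 1.66e-12). For ENST00000489336.1 and ENST00000565813.1 the differences were 3.66 and 2.98, again with all 3 OS high arrays above all 3 OS untranslated arrays (limma adjusted p = 3.04e-12 and 3.44e-11). All 5 thus stood higher in the high pool upon OS, as they had in control cells.

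Of the 865 members tested, 833 (96.3%) were higher in the OS high pool than in the OS untranslated pool at an adjusted p under 0.05, against 26.6% of all 9425 lncRNA probes tested. None was lower in the limma fit (0 at an unadjusted p under 0.05 as well), against 23.5% of all lncRNA probes tested. Most of these probes entered the test through the high pool alone, where a low value in the other pool is partly given, so the 316 members measured on all arrays of both pools are the fairer group. In each of the 316 the 3 OS high arrays lay above the 3 OS untranslated arrays, with a median difference of 2.86 and a lowest of 0.98, and the same was seen in 25.1% of the 5281 other lncRNA probes measured in this way. It was also seen in 91.5% of the 1810 mRNA probes that met the same criteria and were measured in this way. This order of the pools is thus not particular to the lncRNAs. When only probes measured in both pools were tested, 309 members (97.8%) were called higher, against 19.6% of 6122 lncRNA probes, and 0 lower by limma, against 29.7%. Over all 897 members the median was 2.75, and it was 2.84, 2.73 and 2.72 within the replicate numbers 1, 2 and 3, each of which lay on a slide of its own here. With normexp background correction in place of the processed signal the median was 1.46. On the deposited scale, which set the criterion of 2, the OS difference had a median of 2.12 and was at least 2 in 497 members (55.4%), at least 1 in 830 and below 0 in 5. On the separately normalized scale, where differences run larger (median 3.47 in control cells), 710 members reached 2, 882 reached 1 and 2 lay below 0. The other 7005 lncRNA probes had a median of -0.06.

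**Figure D2:**
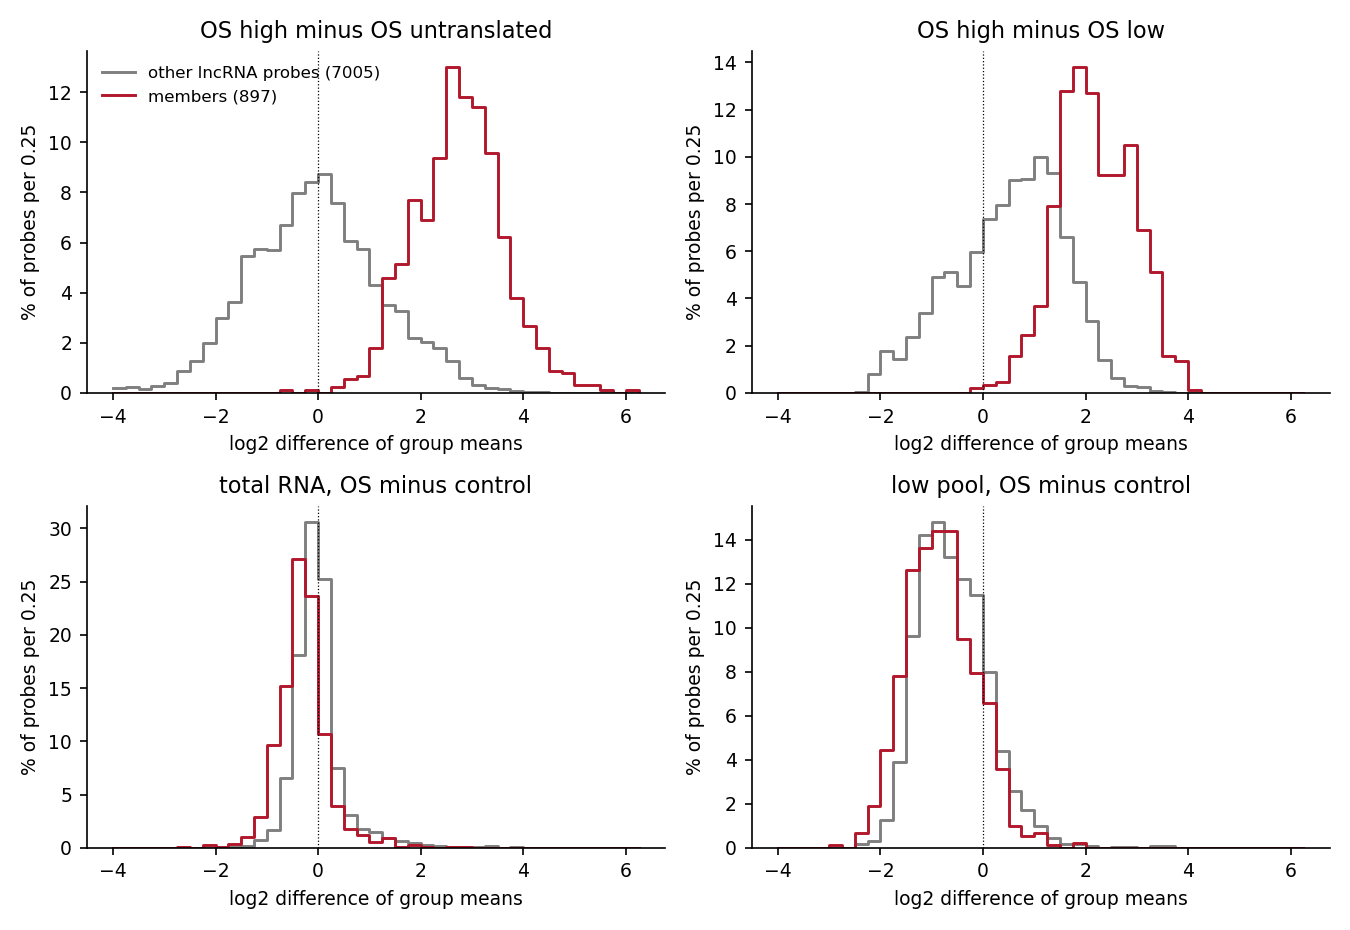
Distribution of log2 differences of group means in 4 comparisons, in percent of probes per step of 0.25, for the 897 members (red) and the 7005 other lncRNA probes well above background in the control high pool (gray). Members lie to the right of 0 in both upper panels (medians 2.75 and 2.14) and slightly left of the other probes in both lower panels (medians -0.31 and -0.86).

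The 5 members with the largest control difference among those measured in both control pools all had smaller differences upon OS, as had 782 of the 897 members. A choice of the largest control values favours this, so the 5 are given as examples only. Both values of each are given on the separately normalized scale, and those of control cells also chose the members. ENST00000421806.1 had 10.71, 10.66 and 10.84 in the OS high pool and 8.34, 8.54 and 8.66 in the OS untranslated pool. Its groups do not overlap, and its difference of 2.22 (SE 0.35, limma adjusted p = 2.87e-05) compares with 5.23 in control cells. ENST00000515055.1, whose probe lies on KPNA6, had 15.63, 15.82 and 15.84 against 12.10, 12.11 and 12.31, a difference of 3.59 (SE 0.15, limma adjusted p = 1.46e-12) with no overlap and 5.28 in control cells. ENST00000443556.1 and ENST00000565554.1 were higher by 3.36 and 2.50 on all 3 arrays (limma adjusted p = 2.76e-06 and 0.000926), from 4.59 and 4.65 in control cells. ENST00000567268.1 had a difference of 2.65 with no overlap (4.74 in control cells), which did not pass the test (SE 1.22, limma adjusted p = 0.0700). Its spread comes from total RNA, where control replicate 1 read 3.70 and was not well above background while the other control arrays read 10.90 and 11.06.

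Where no array of a group was well above background, only a bound can be given: the mean of the brighter group against the mean, over the dim group's arrays, of the higher of the probe's own value and the lowest value among probes well above background on that array. ENST00000560624.1 had 9.48, 9.10 and 9.46 in the OS high pool and no OS untranslated array above background, which makes it at least 10.2-fold higher there. ENST00000518438.1 was at least 7.79-fold and ENST00000586628.1 at least 4.95-fold higher, both on all 3 arrays. These 3 were picked for the most positive values in this comparison, an order that rests on signals below detection. Such signals also enter their tests, and no p is given.

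At the other end, the members that no longer stood higher in the high pool were dim. ENST00000504578.1 had 6.50, 6.81 and 5.99 in the control high pool and 4.72, 4.97 and 5.25 in the OS high pool, where no array was well above background, and 1 of the 3 OS untranslated arrays was. Its OS arrays overlap between the pools and it was not tested. ENST00000417112.1 was well above background on 2 of 3 arrays in either OS pool, and its difference of -0.18 was not tested either. ENST00000442780.1 had 6.70, 6.48 and 6.81 in the OS high pool and 7.77, 5.41 and 5.98 in the OS untranslated pool, 1 of these well above background. Its groups overlap, and the difference of 0.27 did not pass the test (SE 0.69, limma adjusted p = 0.755).

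How much of the difference in control cells is due to the choice itself can be read from a replicate that took no part in it. With control replicate 1, 2 or 3 set aside, the same criteria select 1014, 992 and 939 probes, and in the pair of arrays set aside their median difference was 2.44, 2.68 and 2.83 on the deposited scale. In that pair 67.9%, 71.7% and 77.2% of these probes (689, 711 and 725) again reached 2. In the OS pair of the same number 573, 513 and 478 of them did. The OS pair of the same number gave the same probes medians of 2.15, 2.05 and 2.02, and lay below the control pair in 59.0%, 68.8% and 75.7% of them. The median of probes selected in this way kept most of its size upon OS but was lower in each of the 3 pairs, and fewer probes reached 2. The arrays of each OS pair lie on the same slide and those of each control pair on different slides. A part of the slide in this cannot be told apart from that of OS. Should the first 2 control untranslated arrays hold the same RNA, the pairs of replicates 1 and 2 would not be free of the choice, and only that of replicate 3 would be. The difference between control and OS was not tested, since control arrays chose the members.

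Transcripts of known behaviour, from lists looked up among the catalog probes, show where the members stand. Where a gene has several probes, the one brightest in control total RNA is given. snoRNA host transcripts are spliced RNAs whose introns hold small nucleolar RNAs, and several are known targets of nonsense-mediated decay. Of 12 such hosts 7 were found and 6 were tested, and all 6 were lower in the OS high than in the OS untranslated pool. GAS5 differed by -3.01, SNHG12 by -2.83 and SNHG6 by -4.38 (limma adjusted p = 5.61e-13, 7.99e-11 and 7.78e-14), each on all 3 arrays. Of 4 nuclear noncoding RNAs 3 were found, and MEG3, which alone was tested, was lower with a difference of -1.56 (limma adjusted p = 6.36e-07). Without normalization SNHG3 and SNHG7 among the hosts turned to 0.77 and 0.99 and MEG3 to 1.04. Of 10 early stress response genes 3 were found, and all 3 were higher in the OS high pool: the transcription factors ATF3 by 2.63, JUNB by 3.08 and EGR1 by 1.54. Of the other 3 ATF3 probes 2 were higher as well (1.59 and 1.02), while 1 was lower (-0.88, limma adjusted p = 0.0261). Of 10 abundant fibroblast mRNAs 4 were found. The collagen COL1A1 was higher by 1.28 and the ferritin chain FTH1 was lower at -0.50, while COL3A1 at -0.33 and the elongation factor EEF1A1 at -0.13 did not pass the test and were at 2.45 and 0.04 without normalization. A second EEF1A1 probe was lower at -0.47 (limma adjusted p = 0.0287), and of the other 2 FTH1 probes 1 was lower at -0.87 and 1 did not pass at -0.34. The members thus had the direction of these probes of the 3 stress response genes in this comparison and the opposite of the snoRNA hosts, and none of these lists was tested against the members.

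In total RNA the members differed little between OS and control. Of the members measured on all total RNA arrays, ENST00000420207.1 fell most. It had 9.40, 9.11 and 9.35 on the control arrays and 7.16, 7.42 and 7.14 on the OS arrays. The groups do not overlap, and it fell by 2.05 (SE 0.37, limma adjusted p = 0.00124). ENST00000420644.1 had 6.71, 7.06 and 6.93 in control cells and 3.25, 5.42 and 4.31 upon OS, with 1 of the 3 OS arrays well above background. It was called lower, but its fall of 2.57 rests in part on signals below detection. As these also enter its test, no p is given. ENST00000447643.1 fell by 1.57 on all 3 arrays (10.40, 10.30 and 10.44 to 8.85, 9.00 and 8.56, limma adjusted p = 0.00836). ENST00000515055.1 on KPNA6 fell by 0.58 (SE 0.15, limma adjusted p = 0.0235), with all 3 OS arrays below all 3 control arrays.

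Of the 819 members tested in total RNA, 23 (2.81%) fell, against 3.32% of all 11736 lncRNA probes tested, and 1 (0.122%) rose, against 6.03%. In this fit the share that fell is near the background, and fewer members rose. The share that fell depends on the setting: it was 6.59% against 2.33% without normalization, 8.30% against 4.90% with normexp and 35.3% against 14.2% in a limma fit of the 6 total RNA arrays alone. In the main fit it was 6.67% of the 210 members also well above background on all control untranslated arrays. The difference between members and background was not tested. OS low replicate 3 is no part of this comparison but widens the spread that all groups share. Without it 125 members (15.3%) fell, against 7.39% of all lncRNA probes, and 12 (1.47%) rose, against 10.7%. The 23 members, of 17 transcripts, are all among the 125, which belong to 88 transcripts. ENST00000421806.1, at 10.39, 10.35 and 10.37 in control cells and 9.38, 9.53 and 9.50 upon OS, shows the dependence: its difference of -0.90 did not pass with that array (adjusted p = 0.168) and passed without it (adjusted p = 0.00044, both from limma). Over all 897 members the median difference was -0.31, and -0.35, -0.31 and -0.29 within the replicate numbers, against -0.06 for the other lncRNA probes. The count that fell was 13 without control total replicate 3, 13 without OS total replicate 1 and 14 without OS total replicate 3 (1.56%, 1.56% and 1.68% of the members tested, against 2.10%, 2.19% and 2.09% of all lncRNA probes). All 3 OS arrays lay below all 3 control arrays in 439 members and above them in 53 (48.9% and 5.91%), against 21.0% and 15.1% of the other 7005 lncRNA probes.

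**Figure D3:**
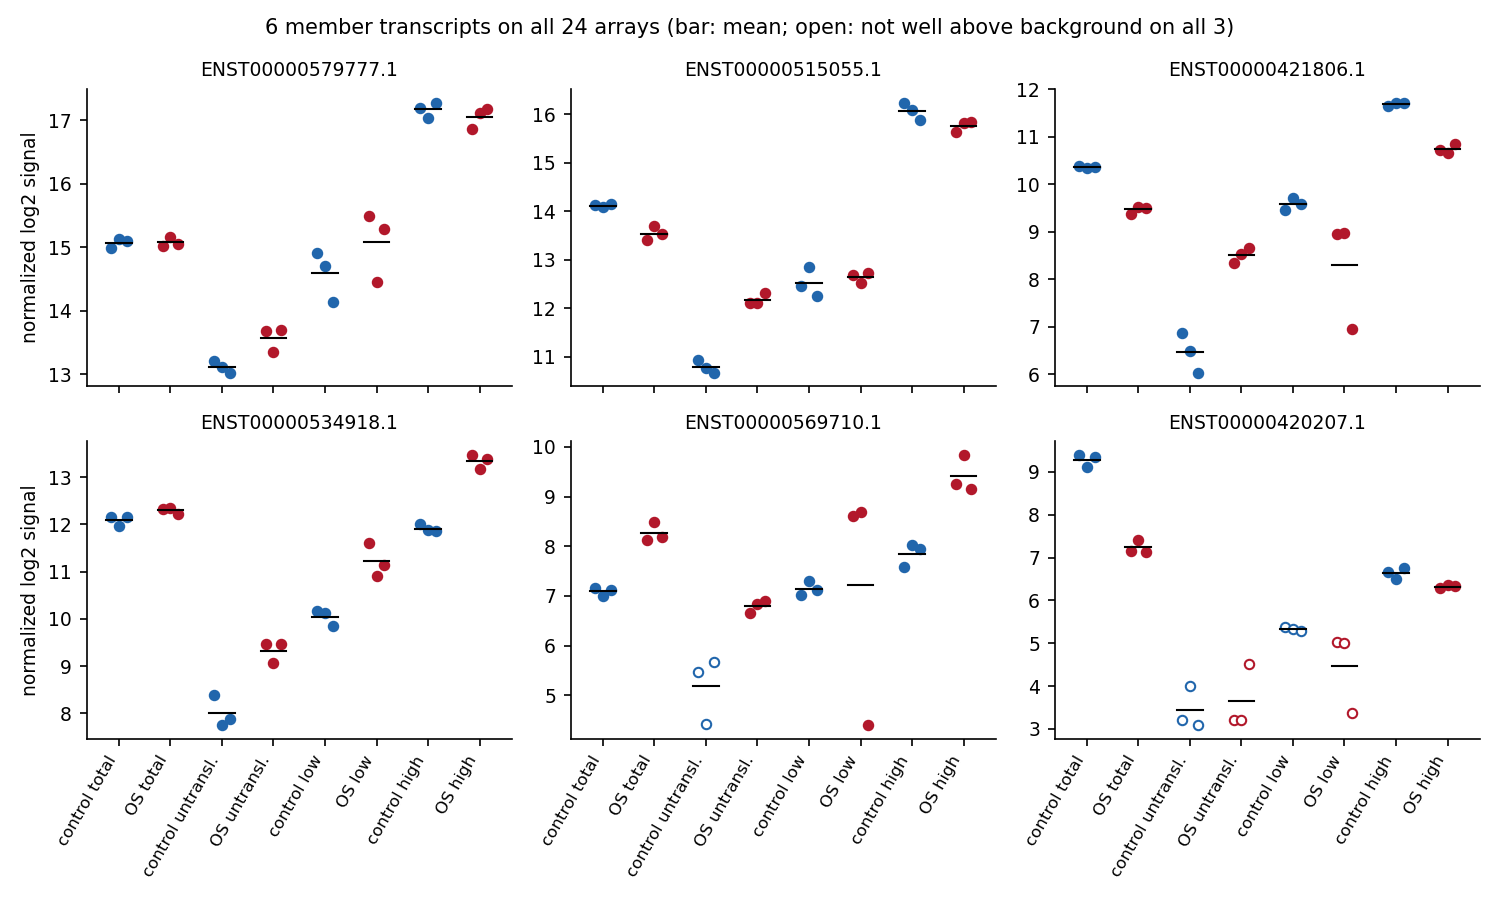
Normalized log2 signal of 6 member transcripts on all 24 arrays, control in blue and OS in red, with the group mean as a bar and open points for groups not well above background on all 3 arrays. ENST00000579777.1 keeps its order of pools upon OS, the OS points of ENST00000421806.1 lie lower in total RNA and in the high pool and higher in the untranslated pool, those of ENST00000534918.1 lie higher in all 3 pools, and those of ENST00000420207.1 lie lower in total RNA.

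In the low pool the comparison of OS with control rests on the array that stands apart. ENST00000534918.1 changed little with it. Its signals of 11.61, 10.90 and 11.13 upon OS all lay above the 10.17, 10.13 and 9.84 of control cells. It rose by 1.17 (SE 0.19, limma adjusted p = 0.000722), and by 1.21 without OS low replicate 3 (limma adjusted p = 0.000829). ENST00000597574.1, not well above background on any control low array, was at least 1.71-fold higher upon OS, at a mean of 5.81 (SD 0.17), and was picked for its value in this comparison. As signals below detection enter its test, no p is given. ENST00000562082.1 had 7.98, 8.30 and 7.99 in control cells and 6.21, 6.45 and 3.29 upon OS. It fell by 2.77 (SE 0.56, limma adjusted p = 0.00478), and by 1.76 without the last of these arrays (adjusted p = 0.00191). ENST00000563286.1 and ENST00000594816.1 fell by 2.47 and 2.34 with that array and by 1.10 and 1.24 without it, on all arrays and with an adjusted p from limma under 0.05 in either fit.

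Of 798 members tested in the low pool, 92 (11.5%) fell, against 2.73% of all 12509 lncRNA probes tested, and 5 (0.627%) rose, against 2.71%. Without OS low replicate 3, 80 of 806 (9.93%) fell, against 2.54%, and 19 (2.36%) rose, against 5.58%. Both fits share 67 of the members that fell and all 5 that rose. The median over the members was -0.86 with that array and -0.20 without it, and -0.64 and -0.08 over the other lncRNA probes. Within the replicate numbers it was -0.09, -0.42 and -2.28, so most of the size of the median came from the array that stands apart. The count that fell was 398 without OS low replicate 1 and 350 without OS low replicate 2 (49.4% and 42.0% of the members tested, against 23.5% and 26.4% of all lncRNA probes tested). It was 39, 15 and 31 without control low replicates 1, 2 and 3 (4.88%, 1.87% and 3.79%, against 1.31%, 0.948% and 0.920%). In a limma fit of the 6 low arrays alone 0 members fell (70 at an unadjusted p under 0.05). Without normalization 27 members rose (3.38%, against 6.02% of all lncRNA probes tested) and 47 fell (5.89%, against 1.26%), and the median turned to 0.15. Without both the normalization and OS low replicate 3, 102 members fell (12.7%, against 3.03% of all lncRNA probes tested). The median was then -0.29, so the change of direction came with that array.

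Against the low pool, too, the members stood higher in the high pool upon OS. ENST00000515055.1 had 15.63, 15.82 and 15.84 in the OS high pool and 12.68, 12.52 and 12.72 in the OS low pool, a difference of 3.12 (SE 0.15, limma adjusted p = 4.43e-11). ENST00000489336.1 differed by 2.30 and ENST00000579777.1 by 1.98 (limma adjusted p = 2.59e-09 and 7.94e-07), each on all 3 arrays. ENST00000565813.1, with 16.72, 17.17 and 17.22 against 16.24, 15.82 and 16.28, differed least of the 5 brightest, by 0.93 (SE 0.17, limma adjusted p = 0.000165).

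Of 870 members tested, 798 (91.7%) were higher in the OS high than in the OS low pool, against 24.6% of all 12470 lncRNA probes tested. By limma 0 were lower (0 at an unadjusted p under 0.05), against 11.9%. Some of these members entered the test through the high pool alone. When only probes measured in both pools were tested, 709 of 767 members (92.4%) were higher, against 34.3% of 8533 lncRNA probes. By limma 0 were lower there, against 14.1%. Without OS low replicate 3, 708 of 871 (81.3%) were higher, against 18.7%, and 0 were lower, against 26.6%. In a limma fit of the 6 arrays of these pools alone 318 (36.6%) were higher, against 6.11%. The median difference was 2.14 with that array and 1.53 without it, against 0.62 and 0.09 for the other lncRNA probes. Without normalization 129 members (14.8%) were higher and 105 (12.1%) lower, against 1.28% and 79.7% of all lncRNA probes tested, and the median of the members turned to -0.19. Without OS low replicate 3 as well, 246 (28.2%) were higher and 41 (4.71%) lower, against 2.51% and 65.4%, with a median of 0.29. The size of the difference thus holds relative to the other lncRNA probes only.

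Between OS and control within the high and within the untranslated pool, the members moved a little toward each other, which is a description, since control arrays of both pools chose them. In the high pool the median of OS minus control was -0.26, and -0.25, -0.38 and -0.20 within the replicate numbers, against -0.07 for the other lncRNA probes. A value of at least 1 was seen in 9 members (1.00%, against 2.18% of the other lncRNA probes) and of -1 or less in 27 (3.01%, against 1.01%). In the untranslated pool the median was 0.45, and 0.41 over the 205 members measured on all arrays of both groups, against -0.02 for the other lncRNA probes. Within the replicate numbers, whose OS and control arrays lie on different slides in this pool, it was 0.21, 0.38 and 0.73. The same criteria select 2917 mRNA probes without an outlier mark. Normalized apart, their medians were -0.11 in the high and 0.39 in the untranslated pool, the same directions as in the members. How much of these medians comes with the choice was not tested.

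Few single members rose in the high pool. ENST00000569710.1, on the clone BC035135, had 9.26, 9.84 and 9.15 in the OS high pool and 7.59, 8.02 and 7.94 in the control high pool, higher by 1.57, and 8.12, 8.48 and 8.19 against 7.16, 7.00 and 7.12 in total RNA. ENST00000534918.1 was higher by 1.44 in the high pool and ENST00000564834.1 by 1.34, with no overlap of the arrays. All 3 were also higher in the untranslated pool upon OS, ENST00000534918.1 by 1.33 and the other 2, which no control untranslated array measured, at least 1.63-fold and 1.55-fold. In total RNA the first of these 3 differed by 1.17 (limma adjusted p = 0.492, or 0.00308 without OS low replicate 3), ENST00000534918.1 by 0.20 (limma adjusted p = 0.786, or 0.563) and ENST00000564834.1 by 1.33 (limma adjusted p = 0.348, or 0.0412). ENST00000593427.1 lay at the other end, with 13.16, 12.72 and 12.76 in the OS high pool against 14.12, 14.32 and 14.26, lower by a difference of -1.35, and it fell by 0.93 in total RNA (limma adjusted p = 0.00137). ENST00000504578.1 was at least 2.13-fold and ENST00000446992.1 at least 1.56-fold lower in the OS high pool, where neither was well above background on any array.

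Transcripts with both probes among the members allow a check of each value by a second oligonucleotide, although 242 of the 330 pairs in the fit overlap by at least 20 bases. Both probes were higher in the OS high than in the OS untranslated pool for 315 transcripts and 1 probe alone for 12. In total RNA both fell for 6 and 1 alone for 6, and in the low pool both fell for 28 and 1 alone for 24. Both probes were tested for 327, 304 and 295 transcripts in these comparisons. No such counts over the other lncRNA transcripts are given, so these describe agreement between probes only. No transcript had probes called in opposite directions in these comparisons or in OS high against OS low. The median absolute distance between the probes was 0.23 in OS high against OS untranslated and 0.08 in total RNA, but 29 and 15 pairs were apart by over 1, the farthest by 2.36 and 2.99. ENST00000579777.1 gave 3.48 and 3.27, ENST00000455236.1 3.96 and 3.91, and ENST00000489336.1 3.66 and 3.57. Calls of a single probe in total RNA and in the low pool are thus about as many as calls of both.

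**Figure D4:**
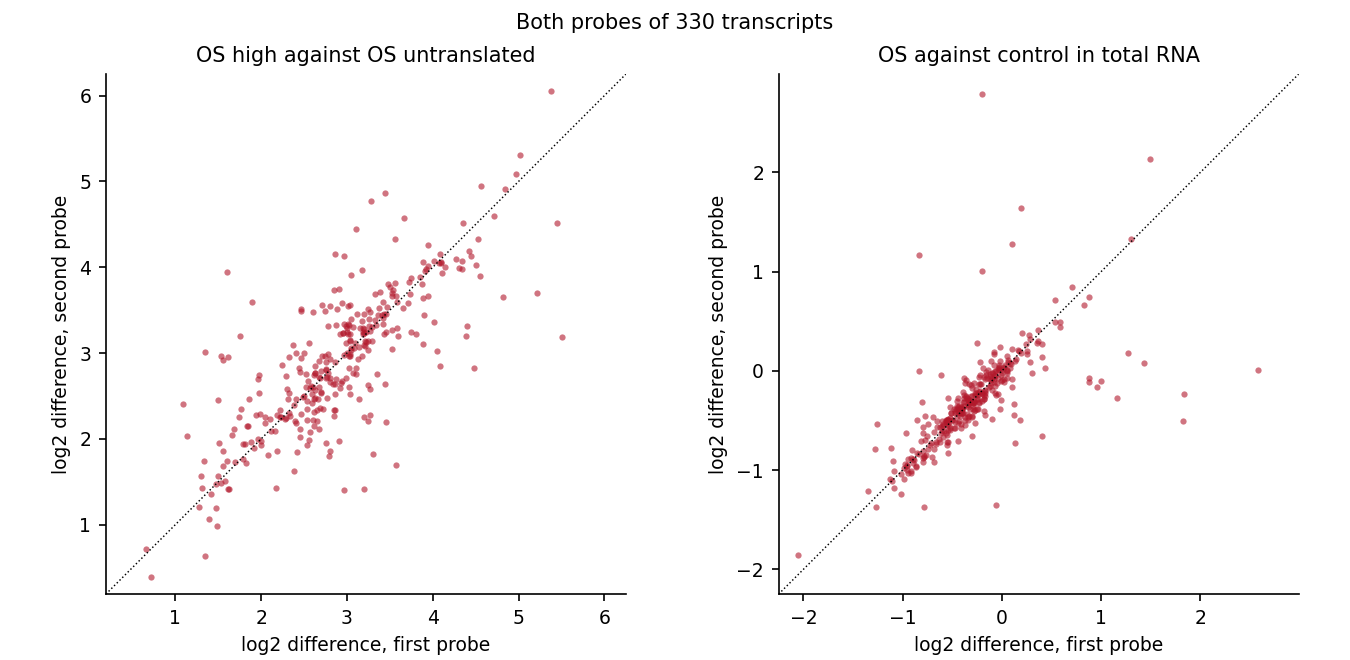
Log2 difference from one member probe (x axis) against that from the other member probe (y axis) of the same transcript, for 330 transcripts. In OS high against OS untranslated (left) all points lie above 0 on both axes; in total RNA (right) most lie near the dotted line of equal values.

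Member probes that overlap a catalog probe allow a comparison between the categories. Over the 51 pairs, the member probes had a median OS high minus OS untranslated difference of 2.96 and the catalog probes, normalized among the mRNA probes, 1.50, with the same sign in 49. Where at least 50 of the 60 bases were shared (29 probes) the medians were 3.27 and 1.50. ENST00000515055.1 and KPNA6 share 59 bases and differed by 3.59 and 1.37. The 22 member probes that overlap the catalog probe of a coding mRNA had 3.32, against 1.52 for those catalog probes. The 13 that overlap one of a non-coding RefSeq RNA had 1.53, against 0.16. The member probe had the larger value in 48 of the 51 pairs and in 26 of the 29. The exceptions were ZNF805 with 1.94 for the member probe and 2.83 for the catalog probe, KRTAP21-1 with 1.37 and 2.07, and the catalog entry ENST00000532625 with 1.37 and 1.75. In the deposited table, where both categories are normalized together, the medians of the 51 pairs were 1.93 and 1.99, and the member probe was larger in 21 pairs and smaller in 30. The larger values of the member probes thus appeared with separate normalization and not on the common scale, and sizes of the 2 categories are not set against each other. In total RNA, separately normalized, the medians were -0.25 and -0.12, with the same sign in 45. The 22 probes that overlap KPNA6, GNB4, CNP, KPNA2, NBPF10, PTPN3, SRGAP2, ZNF805 and other coding genes share 20 to 60 bases with the catalog probe. Where most bases are shared, as on KPNA6, CNP, PTPN3 and ZNF805, the signal of an lncRNA cannot be told apart from that of the mRNA. Where fewer are shared, as 22 on KPNA2 and 20 on TMED7-TICAM2, the part of the mRNA in the signal was not tested. The other members have no catalog probe on their sequence, and how many of them lie on coding mRNAs was not tested.

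**Figure D5:**
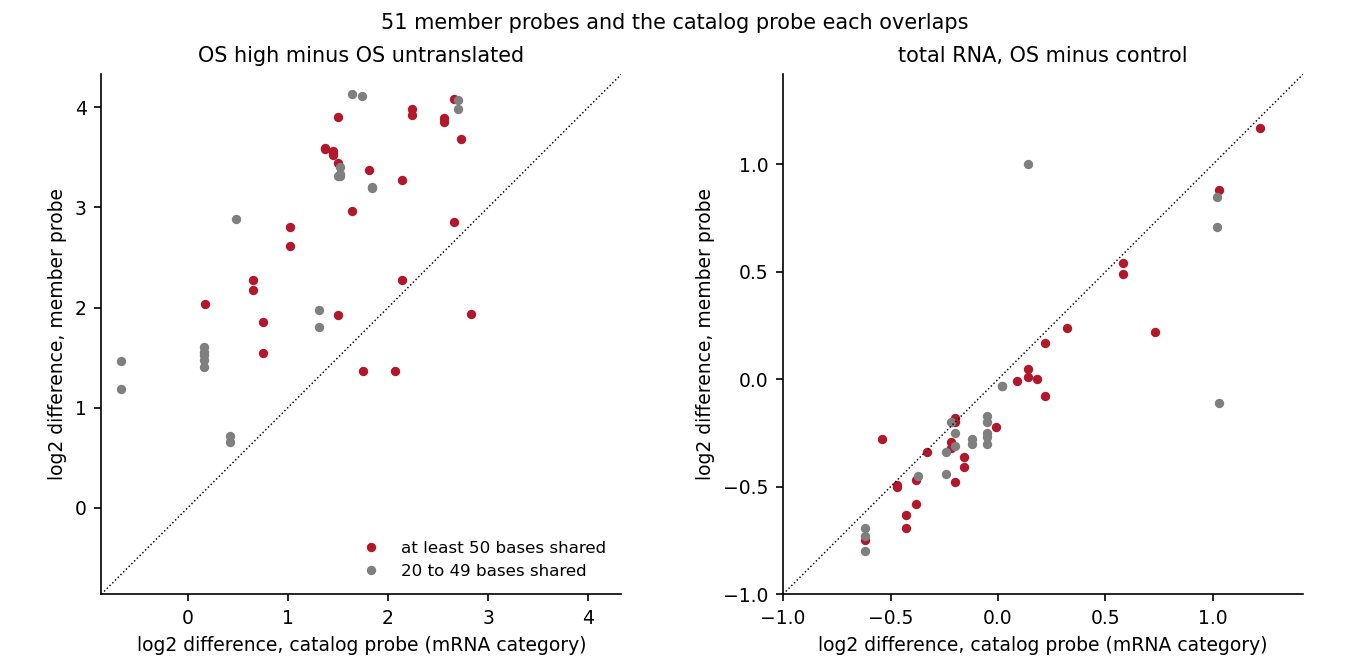
Log2 difference of 51 member probes (y axis, lncRNA category) against that of the catalog probe each overlaps (x axis, mRNA category), in red where at least 50 bases are shared and in gray for 20 to 49. In OS high minus OS untranslated (left) most points lie above the dotted line of equal values; in total RNA (right) they lie near it.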

How the data were processed

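Spot intensity from the scanner software (Feature Extraction 10.7.3.1) was deposited by the authors, with a table of log2 values quantile normalized over all probes. Here the log2 processed signal was quantile normalized for lncRNA and mRNA probes separately, as 1 of 2 passages in the methods describes. The other names normexp background correction, run here as an alternative. The study dropped outlying replicates it does not name, while all 24 arrays stayed in the main fit here. Control spots and 178 probes with an outlier mark were left out. limma 3.58.1 in R 4.3.3 fitted the 8 groups, with Benjamini-Hochberg adjustment over lncRNA and mRNA probes and calls at an adjusted p under 0.05. Testing required a mark well above background on all arrays of at least 1 group compared. Named members have an unshared probe sequence, 1 probe per transcript. They are those with the 5 largest control differences measured in both pools and the 5 brightest. Added to these were 3 on either side of the threshold and the 3 brightest with both probes. Up to 3 most positive and 3 most negative were taken in OS high against OS untranslated and in OS against control. The latter was done in total RNA and the low and high pools, in the first 2 of these with called members only. In total RNA this left 0 positive ones. Members that overlap a catalog probe and ENST00000558334.1 were named after their values were seen. Members and lists were chosen with earlier results of these data known. Only the limma comparisons were tried on simulated data, in which no array stood apart. The normalization and the choice of members were not simulated. A match of members to protein reading frames was not run, because no protein table was given.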

Additional observations from a re-analysis of the deposited data

Results flagged for a closer look

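In 8 named members measured on every array of the groups compared, OS minus control took opposite directions in different pools, with all 3 OS arrays on one side of the 3 control arrays in each case. The difference between the pools was not tested, and the control high and control untranslated arrays also chose the members. The members named for the largest control difference measured in both pools are all among the 8. That choice favours a fall in the high and a rise in the untranslated pool upon OS. No such count over all members or the other lncRNA probes is given. In the untranslated pool all 3 OS arrays lay higher in 30.3% of the 897 members, against 9.61% of the other lncRNA probes. In the high pool they lay lower in 40.1%, against 13.4%. ENST00000421806.1 was at -0.90 in total RNA, -1.28 in the low and -0.95 in the high pool, and at 2.05 in the untranslated pool. Its low pool value was -0.62 without OS low replicate 3, the array that stands apart. ENST00000565554.1 had -0.68, -1.71 (-0.56 without that array) and -0.64 in total RNA and the low and high pools, and 1.51 in the untranslated pool. ENST00000443556.1 had -0.87, -1.53 (-0.67) and -0.79, and 0.44 in the untranslated pool. For ENST00000515055.1 the values were -0.58 in total RNA, -0.31 in the high pool and 1.38 in the untranslated pool, and for ENST00000593427.1 they were -0.93, -1.35 and 1.13. ENST00000567268.1 had -0.60 in the high and 1.49 in the untranslated pool. Smaller values were seen for ENST00000455236.1, with -0.20 and -0.22 from its 2 probes in total RNA and 0.29 and 0.31 in the untranslated pool, and for ENST00000489336.1, with -0.22 and 0.24 from 1 probe. Its second probe had -0.07 and 0.19 with overlapping arrays and does not show this. ENST00000563286.1 had -1.09, -2.47 (-1.10) and -0.83, and 1.50 in the untranslated pool, where it was well above background on 1 of 3 control arrays, and is not among the 8.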

How the results depend on the processing

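Each array leaves 3 values per group, and a dim probe adds a bound in place of a value. Most members were not well above background in the untranslated pools, so the size of their differences there depends on how low signals are treated. Normalization within the category fixes each array's distribution, and only order within the category is compared. Alternatives without OS low replicate 3, or with that array left out together with another scaling or filter, were chosen after seeing the data. The cause of the movements below was not tested unless fewer members, probes or arrays make it plain.

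Over all probes the median difference, at most 0.04 in size with the main normalization, was 0.29 for OS high against OS untranslated, -0.32 for total RNA, 1.03 for the low pool and -2.28 for OS high against OS low without normalization, and -0.87, -0.22, 0.12 and -0.20 with scaling to the 75th percentile.

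The number of members (899) was 343 with a control difference of at least 3, 1749 with at least 1, 1380 with the difference taken on separately normalized values, 210 with members also well above background on all control untranslated arrays, and 939 to 1014 without each control replicate. In the same order of these 4 settings, 338, 1416, 1268 and 207 members were higher in OS high against OS untranslated (833). These are 99.4%, 87.2%, 94.8% and 98.6% of those tested (96.3%, against 26.6% of all lncRNA probes). In total RNA 10, 36, 37 and 14 fell (23), which are 3.09%, 2.30%, 2.87% and 6.67% (2.81%, against 3.32%). In OS high against OS low 328, 1326, 1213 and 205 were higher (798). These are 96.5%, 78.3%, 90.0% and 97.6% (91.7%, against 24.6%). In the low pool 39, 138, 137 and 47 fell (92), which are 12.6%, 8.59%, 10.8% and 22.4% (11.5%, against 2.73%). The medians were 3.02, 2.29, 2.54 and 3.14 for OS high against OS untranslated (2.75), and in total RNA (-0.31) -0.36, -0.27 and -0.27 for the 3 changes of the difference.

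For OS high against OS untranslated, 309 members were higher with only probes well above background in both groups. These are 97.8% of those tested, against 19.6% of all lncRNA probes. With that filter and without OS low replicate 3, 315 were higher (99.7%, against 26.6%). With the mean of a transcript's probes 522 transcripts were higher (95.6%, against 25.9%). The median was 2.12 in the deposited table, 2.36 with the 75th percentile (both also without OS low replicate 3), 3.51 without normalization, 1.46 with normexp and 2.51 with the transcript mean. Leaving out each array gave 798 to 814 members (91.2% to 93.5%, against 22.7% to 24.3%) and medians of 2.70 to 2.82.

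In total RNA, 13 members fell with the 75th percentile (1.59%, against 2.06% of all lncRNA probes tested), 54 without normalization (6.59%, against 2.33%), 68 with normexp (8.30%, against 4.90%) and 289 in a fit of the 6 arrays alone (35.3%, against 14.2%). Without OS low replicate 3, 125 fell (15.3%, against 7.39%), 129 with the 75th percentile as well (15.8%, against 7.04%), 194 without normalization as well (23.7%, against 9.45%), 107 in the deposited table (13.1%, against 6.35%) and 104 with the filter on both groups (14.1%, against 6.80%). The median was -0.26 in the deposited table and -0.36 with the 75th percentile, with or without that array, -0.46 without normalization and -0.19 with normexp. Leaving out each array gave 13 to 19 members and medians of -0.34 to -0.27.

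In the low pool, 47 fell without normalization (5.89%, against 1.26% of all lncRNA probes tested), 184 with normexp (23.1%, against 6.56%), 42 with no filter on dim probes (4.68%, against 0.424%) and 59 in the deposited table without OS low replicate 3 (7.32%, against 1.59%). In a limma fit of the 6 arrays alone 0 fell (70 at an unadjusted p under 0.05), against 5 of 12509 lncRNA probes. Leaving out each array gave 15 to 398 members and medians of -1.25 to -0.20. The median reversed to 0.15 without normalization, but was -0.29 when OS low replicate 3 was left out too. For OS high against OS low, 129 were higher without normalization (14.8%, against 1.28% of all lncRNA probes). In a fit of the 6 arrays alone 318 were higher (36.6%, against 6.11%). With the transcript mean 502 transcripts were higher (91.1%, against 23.5%). The median of this comparison reversed to -0.19 without normalization, and was 0.29 with 246 members higher when OS low replicate 3 was left out too. Leaving out each array gave 708 to 822 members (81.3% to 94.1%, against 18.1% to 30.5%) and medians of 1.53 to 2.52.

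With the replicate block 836 members were higher in OS high against OS untranslated (96.6% of those tested, against 26.9% of all lncRNA probes). In total RNA 23 were lower (2.81%, against 3.35%), and in the low pool 89 (11.2%, against 2.71%). In OS high against OS low 797 were higher (91.6%, against 26.5%). With the slide as a block the counts were 835, 21, 80 and 799 in the same order. Their shares were 96.5%, 2.56%, 10.0% and 91.8%, against 27.2%, 3.31%, 2.61% and 27.4%. The replicate numbers coincide with the slides in every group but control untranslated. Deviations of same-numbered arrays correlated in part, with r across probes from -0.084 to 0.458: some arrays correlated best with their own number, as in total RNA with 0.314 and 0.376, and others did not. Probes are not independent replicates.

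Of 634 values of 36 named member results, 578 kept direction and side of the threshold, 35 no longer passed, 9 newly passed, 6 moved and 6 reversed. ENST00000417112.1 ranged from -0.68 without OS untranslated replicate 2 to 0.24 without OS high replicate 2. ENST00000442780.1 turned to -0.09 in the deposited table and -0.11 with the 75th percentile, both also without OS low replicate 3, and ranged from -0.22 without OS untranslated replicate 2 to 0.96 without OS untranslated replicate 1.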
